A study of Mus musculus with 6 samples.

Results

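The probe sets described here are those of Rps6ka3, the gene disrupted in the Rsk2 knockout mouse, and of the kinases that lead to its activation: Map2k1, Map2k2, Braf, Araf and Pdpk1. They were taken as all probe sets that the platform annotation assigns to exactly 1 of these symbols, which gave 10 of 22690 probe sets on the array. Of these, 3 belong to Rps6ka3, 2 each to Map2k2 and Pdpk1, and 1 each to Map2k1, Braf and Araf. Mapk3, the kinase ERK1, was also sought, but the annotation used names no probe set for it and it was not analysed here.

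Hippocampal RNA of male mice aged 2 months on a C57BL/6J background was measured on 6 Affymetrix arrays. The animals of 3 arrays were labelled Rsk2-KO and those of the other 3 were WT littermates, and 2 hippocampi were pooled for each array. The labels do not describe the knockout allele, nor whether the pools shared animals, so every test measures the spread between these pools. The study asked which molecular pathways differ in expression between the knockout and its normal littermates.

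Rsk2 is a serine/threonine kinase with a kinase domain at each end. In the ERK cascade, Ras recruits and activates Raf kinases such as Araf and Braf, these phosphorylate the MEK kinases encoded by Map2k1 and Map2k2, and the MEK kinases activate ERK. ERK then phosphorylates the carboxy-terminal part of Rsk2, and Pdpk1 (PDK1) completes the activation at the amino-terminal kinase domain. In hippocampal neurons the cascade is known for its part in synaptic plasticity and memory, and loss of the human gene causes Coffin-Lowry syndrome. RNA levels do not report the phosphorylations by which these kinases act.

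The arrays had the same overall scale, with a trimmed mean signal of 100.034 to 100.037. Both arrays numbered 3 were set apart from the other 4 by the first principal component (44.9% of the variance). Because of this, each member's difference is also given within the arrays numbered 1 and 2 and between those numbered 3. The second component (26.3%) put Rsk2-KO 1 and 2 at 24.7 and 18.1 and WT 1 and 2 at −28.2 and −19.0. Between them lay Rsk2-KO 3 at 3.58 and WT 3 at 0.79. Of the signs of RNA quality, the signal at the 5′ end of 18S ribosomal RNA was lowest on WT 1 and WT 2 (562 and 327, against 858 to 1580 elsewhere). The ratio of 3′ to 5′ signal of actin instead set both arrays numbered 3 apart (2.2 on each, against 1.5 to 1.6 on the other 4). Hippocampal markers were measured on all arrays, such as Nrgn and Camk2a of excitatory neurons, Wfs1 and Pou3f1 of area CA1 and Prox1 of the dentate gyrus. Some markers varied widely within a label. Ttr of the choroid plexus ranged from 504 to 1611 on the arrays labelled Rsk2-KO and from 680 to 2122 on WT. Neurod6 of excitatory neurons was lowest on Rsk2-KO 3 and WT 3 (183 and 122, against 299 to 523 elsewhere). Of 11 marker lists, the summed signal did not overlap between the groups in 2, endothelium and pericytes (419 to 478 on the arrays labelled Rsk2-KO, 577 to 615 on those labelled WT) and microglia (870 to 923 against 939 to 1041). Both gaps closed when certain single genes were left out, and these genes were looked up after the sums were seen. The microglial gap was narrow, at 923 to 939. Among single genes, each at its brightest probe set, the groups did not overlap in 14.2%, and no such share was computed for sums. Without Vtn, which differed by −0.75 on the log2 scale (−0.83 at its other probe set), the vascular sums overlapped (259 to 271 against 253 to 326). Of the vascular markers 4 lay lower and 1 higher, where 4439 of all 7866 genes lay lower. Flt1 differed by −0.34 (−0.03 and 0.20 at its other probe sets), Pecam1 by −0.27 and Cldn5 by −0.13. The pericyte marker Pdgfrb differed by 0.05. The microglial sums overlapped without Csf1r (302 to 333 against 324 to 362), and also without C1qa or without Trem2. Of the microglial markers 4 lay lower and 1 higher. Trem2 differed by −1.07, Csf1r by −0.16 (−0.15 and −0.45 at its other probe sets), C1qa by −0.06 and Aif1 by −0.01. Cx3cr1 differed by 0.65, with 1.10 within the arrays numbered 1 and 2 and −0.25 between those numbered 3. In bulk tissue, fewer cells of a type and less RNA per cell cannot be told apart. The part of these markers in the kinase values below was not tested.

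At none of its 3 probe sets was Rps6ka3 lower on average on the arrays labelled Rsk2-KO. At the brightest, 1455206_at, the signals were 99.2, 98.4 and 87.0 on Rsk2-KO 1, 2 and 3 and 74.2, 59.7 and 89.2 on WT 1, 2 and 3. The highest values thus came from Rsk2-KO 1 and 2 and the lowest from WT 1 and 2, while the arrays numbered 3 lay together between them, and the groups overlapped. The second principal component given above, which is drawn from all tested probe sets, placed the arrays likewise. Means of 94.8 ± 6.81 for Rsk2-KO and 74.4 ± 14.8 for WT (SD, n = 3 each) gave a log2 difference of 0.37 (SE 0.19, 95% interval −0.06 to 0.79), which did not pass the test (limma, adjusted p = 0.661). WT 2 moved this value most, and without it the log2 difference was 0.22.

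The second probe set of Rps6ka3, 1427299_at, gave 25.4, 22.8 and 35.9 on Rsk2-KO 1, 2 and 3 and 13.0, 16.2 and 31.9 on WT 1, 2 and 3. Both arrays numbered 3 were the highest of their label here, and the groups overlapped through WT 3. The log2 difference was 0.54 (SE 0.37, 95% interval −0.31 to 1.39, limma adjusted p = 0.696). It ranged from 0.27 without WT 1 to 0.92 without WT 3 and was 0.35 without Rsk2-KO 3.

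The third, 1452383_at, lay below the signal of 19.2 that was set as the lower limit for testing. Its signals were 15.4, 18.7 and 10.6 on Rsk2-KO 1, 2 and 3 and 1.18, 10.9 and 11.3 on WT 1, 2 and 3. WT 1 stood far below the rest, and the groups overlapped through Rsk2-KO 3. In the fit over all 22626 probe sets that are not controls, its log2 difference was 1.46 (SE 0.86, 95% interval −0.46 to 3.39, limma adjusted p = 0.773), and without WT 1 it was 0.39. The probe sets 1427299_at and 1452383_at carry the same source accession in the platform annotation, so they are not independent views of the transcript.

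At all 3 probe sets the difference was larger within the arrays numbered 1 and 2 than between the arrays numbered 3. Within the former it was 0.57 for 1455206_at, 0.73 for 1427299_at and 2.24 for 1452383_at on the log2 scale. Between the latter the same probe sets differed by −0.04, 0.17 and −0.09. When the change between these sets of arrays was itself tested, the fit gave an interaction of −0.61 (SE 0.31) for 1455206_at, which did not pass (limma, adjusted p = 0.513). The arrays with the lowest signal of 1455206_at, WT 1 and WT 2, were also those with the lowest signal at the 5′ end of 18S given above. At its 3′ end, WT 1 (2036) lay above Rsk2-KO 1 and 2 (1776 and 1774) and WT 2 (1644) below them. The actin ratios of WT 1 and 2 (1.6 and 1.5) were close to those of Rsk2-KO 1 and 2 (1.6 and 1.5). The part of RNA quality in this difference was not tested. Where these probes lie in the transcript, before or after the mutation, was not analysed here. Their signals therefore check nothing about the genotype, and each group is called by its array label throughout.

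**Figure D1:**
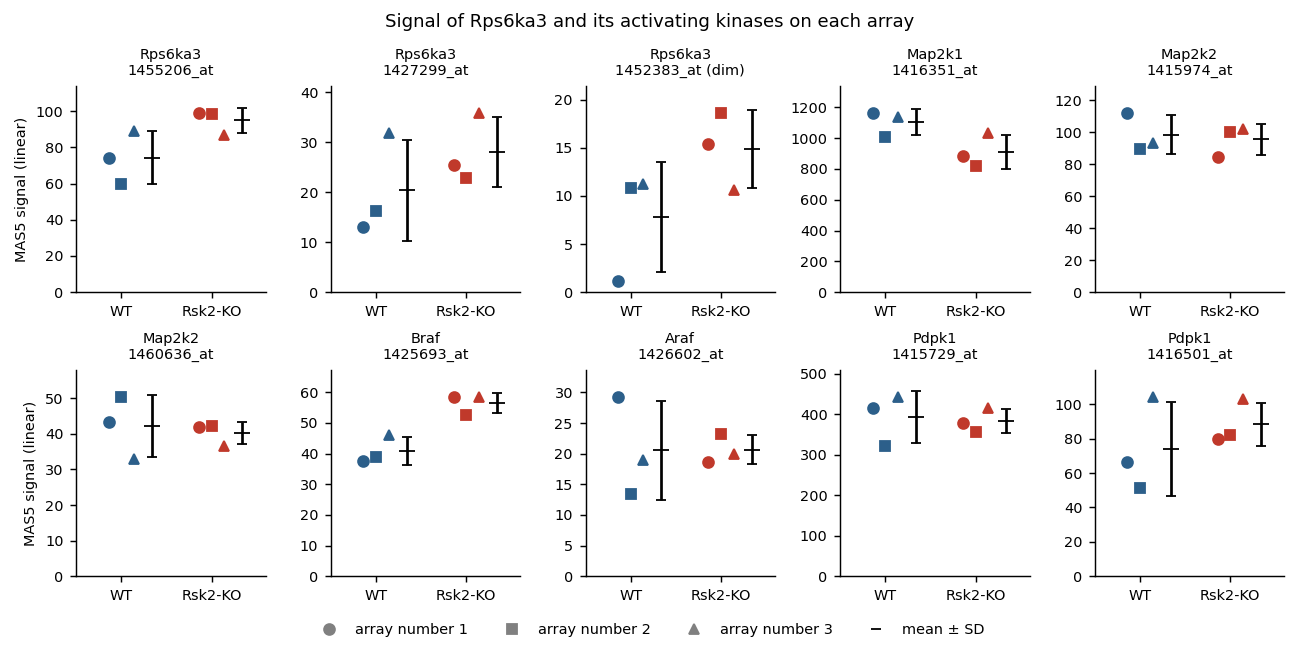
Signal of the 10 probe sets on each array, on a linear scale from 0, with WT arrays in blue and arrays labelled Rsk2-KO in red; the marker shape gives the array number and the black bar the mean ± SD of 3 arrays. The groups do not overlap in 1 panel, Braf, and the triangles of both labels lie close together for the brightest Rps6ka3 probe set (87.0 and 89.2).

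The genes most like Rps6ka3 across the 6 arrays were sought among the brightest probe sets of 7865 other genes. The highest Pearson correlations of log2 signal with 1455206_at were those of Zfp286 (0.998), a zinc finger gene, Pnpla8 (0.996), a phospholipase, Anln (0.991), an actin-binding protein, Mbnl1 (0.986), a splicing regulator, and Bmi1 (0.985), a Polycomb protein. The first 4 put the 6 arrays in the same order as Rps6ka3. For Mbnl1 the signals were 564, 527 and 471 on Rsk2-KO 1, 2 and 3 and 375, 322 and 475 on WT 1, 2 and 3, so WT 3 lay again with Rsk2-KO 3. With 6 points and a search over all genes these values are a description, and 167 genes had a correlation above 0.9. None of these 5 passed the test between the groups (limma adjusted p from 0.661 to 0.706).

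Over all the kinases, 0 of the 9 probe sets above the signal limit passed an adjusted p of 0.05, where 0 of 13576 probe sets, or 0%, did so in limma. At an unadjusted p of 0.05 there was 1 of 9, Braf, beside 937 of all probe sets, or 6.9%. The groups did not overlap in 1 of 9, Braf again, beside 1881 of all probe sets, or 13.9%. Of the 9, the mean of the arrays labelled Rsk2-KO lay above the WT mean in 5 and below it in 4. The 5 include 1427299_at of Rps6ka3, whose signals on WT 1 and WT 2 lay below the limit. A share of 1 in 9 is near both backgrounds, so these kinases as a set did not stand out.

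Braf, the Raf kinase most active towards MEK, was the member whose groups separated. Its probe set 1425693_at gave 58.6, 52.6 and 58.3 on Rsk2-KO 1, 2 and 3 and 37.6, 39.0 and 46.1 on WT 1, 2 and 3. Every array labelled Rsk2-KO exceeded every array labelled WT, and the highest WT value again came from the array numbered 3. The mean was 56.5 ± 3.36 for Rsk2-KO and 40.9 ± 4.52 (SD, n = 3 each), a 1.39-fold difference, or 0.47 on the log2 scale (SE 0.18, 95% interval 0.05 to 0.89). It did not pass the adjusted test (limma, adjusted p = 0.661). With 3 arrays a group, a two-sided exact permutation test cannot give a p below 0.1, the value that complete separation reaches. On the log2 scale Braf differed by 0.54 among the arrays numbered 1 and 2, by 0.34 between those numbered 3, and by 0.41 to 0.56 with any 1 array left out. The other Raf kinase measured, Araf, which like Rps6ka3 is X-linked, showed no such separation. Its signals were 18.7, 23.2 and 19.95 on Rsk2-KO 1, 2 and 3 and 29.3, 13.4 and 18.9 on WT 1, 2 and 3, so the WT arrays held both the highest and the lowest value. The log2 difference of Araf was 0.07 (SE 0.34, 95% interval −0.69 to 0.84, limma adjusted p = 0.961), and its mean WT signal, 20.5 ± 8.08, lay near the limit of 19.2. The arrays numbered 1 and 2 gave 0.07 and those numbered 3 gave 0.08. The sign of Araf turned with 1 array left out, as it was −0.20 without WT 2 and 0.37 without WT 1.

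Map2k1, which encodes MEK1, lay lower on the arrays labelled Rsk2-KO. Probe set 1416351_at gave 882, 816 and 1032 on Rsk2-KO 1, 2 and 3 and 1165, 1006 and 1134 on WT 1, 2 and 3. Rsk2-KO 1 and 2 lay below every WT array, and the groups overlapped only because Rsk2-KO 3 exceeded WT 2. Means of 910 ± 111 for Rsk2-KO and 1101 ± 84.3 for WT (SD, n = 3 each) gave a log2 difference of −0.28 (SE 0.14, 95% interval −0.59 to 0.03), which did not pass (limma, adjusted p = 0.661). The difference was −0.35 within the arrays numbered 1 and 2, −0.14 between those numbered 3, and between −0.20 and −0.37 with any 1 array left out.

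Map2k2, which encodes MEK2, did not show the shift of Map2k1 at either of its probe sets. At 1415974_at the signals were 84.2, 100.3 and 102 on Rsk2-KO 1, 2 and 3 and 112, 89.7 and 93.1 on WT 1, 2 and 3. At 1460636_at they were 42.0, 42.1 and 36.6 against 43.2, 50.4 and 33.1. In both, a WT array was the highest of all and the groups overlapped. The log2 differences were −0.04 (SE 0.17, 95% interval −0.42 to 0.34) and −0.05 (SE 0.22, 95% interval −0.56 to 0.45). They were −0.13 and −0.15 within the arrays numbered 1 and 2, against 0.13 and 0.15 between those numbered 3. These intervals include the −0.28 of Map2k1, and the difference between both genes was not tested. Both probe sets carry the same source accession in the annotation.

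Pdpk1, which phosphorylates Rsk2 and many related kinases, had a pair of probe sets, of which neither passed the test. The brighter, 1415729_at, gave 380, 356 and 416 on Rsk2-KO 1, 2 and 3 and 415, 322 and 444 on WT 1, 2 and 3, with WT arrays at both ends of the range. Its log2 difference was −0.03 (SE 0.16, 95% interval −0.38 to 0.33, limma adjusted p = 0.970), with 0.0076 within the arrays numbered 1 and 2 and −0.09 between those numbered 3. The dimmer, 1416501_at, gave 79.9, 82.3 and 102.8 on Rsk2-KO 1, 2 and 3 and 66.7, 51.3 and 104.3 on WT 1, 2 and 3. Here the arrays numbered 3 were the highest of both labels, and the groups overlapped through WT 3. The log2 difference at this probe set was 0.31 (SE 0.26, 95% interval −0.28 to 0.90, limma adjusted p = 0.730). It was 0.07 without WT 2, 0.19 without Rsk2-KO 3 and 0.59 without WT 3, and it was 0.47 within the arrays numbered 1 and 2 against −0.02 between those numbered 3.

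**Figure D2:**
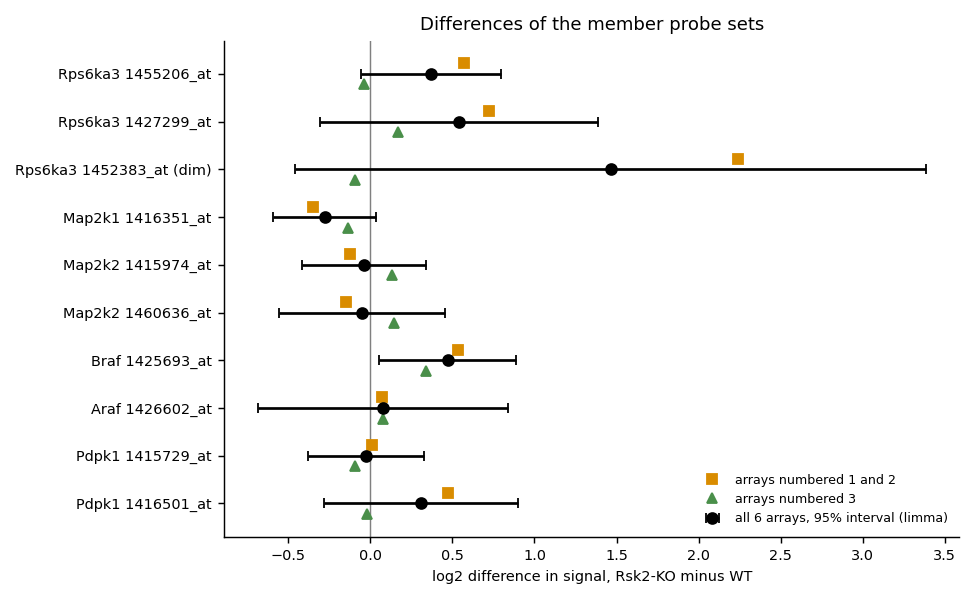
Log2 difference in signal, arrays labelled Rsk2-KO minus WT, for each probe set: black points with 95% intervals from limma use all 6 arrays, orange squares the arrays numbered 1 and 2, and green triangles those numbered 3. The interval lies above 0 for Braf alone (0.05 to 0.89) before adjustment, and for Rps6ka3 every square lies to the right of its triangle.

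The spread between arrays of a label also varied among the kinases. The within-group SD of log2 signal was 0.13 for Braf, 0.15 for Map2k1 and 0.16 for Map2k2 at 1415974_at, at the 12.3, 18.3 and 24.0 percentiles of all tested probe sets. It was 0.39 for Pdpk1 at 1416501_at, 0.42 for Araf and 0.53 for Rps6ka3 at 1427299_at, at the 81.1, 83.6 and 91.9 percentiles. Thus Braf and Map2k1 were among the less variable probe sets, at the 56.1 and 97.6 percentiles of mean signal. They share the smallest adjusted p of the members, 0.661 in limma, with Rps6ka3 at 1455206_at, so it does not rank them. It is also computed from this same spread, so a small p beside a small spread is partly built in. The probe sets 1416501_at and 1415974_at, which differ in spread, lay at the 67.0 and 71.2 percentiles of mean signal over all probe sets.

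Promoter sequence is shown for Braf and Map2k1, the members whose signals lay farthest apart in opposite directions among those with a promoter in the RefSeq table used (GRCm38.p6). The table held windows for 5 of the 7 genes, and the 250 bases before the annotated start are printed 5′ to 3′ on the strand of the gene. The Braf window is chr6:39725464-39725713 and the Map2k1 window chr9:64253606-64253855, both on the minus strand. Capitals mark the cAMP response element TGACGTCA in Braf and its core TGACG, on either strand, in Map2k1; this element is bound by CREB, a transcription factor that Rsk2 phosphorylates.
Braf: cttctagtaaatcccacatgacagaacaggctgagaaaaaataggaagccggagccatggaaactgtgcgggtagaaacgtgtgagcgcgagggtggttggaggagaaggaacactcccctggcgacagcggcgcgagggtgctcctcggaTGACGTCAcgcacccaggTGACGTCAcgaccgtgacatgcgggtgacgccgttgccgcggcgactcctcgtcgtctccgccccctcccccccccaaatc
Map2k1: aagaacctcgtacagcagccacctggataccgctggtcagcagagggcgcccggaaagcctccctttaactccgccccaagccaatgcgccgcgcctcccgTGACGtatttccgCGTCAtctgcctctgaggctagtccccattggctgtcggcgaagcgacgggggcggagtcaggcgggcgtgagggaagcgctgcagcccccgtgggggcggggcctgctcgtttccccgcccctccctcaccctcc

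The Braf window holds TGACGTCA at 99 and 81 bases before the start, counted from the left end of each match. Of 32851 promoter windows of the same length in the table, 508 (1.55%) hold the element at least once and 10 (0.0304%) more than once. The Map2k1 window has no full element, but has the core TGACG at 149 and 136 bases before the start. This core is held at least once by 17.8% of all windows and more than once by 3.90%, counts that include cores inside full elements. It also occurs at 193 bases in 1 of the Pdpk1 windows, and in Braf at 56 bases, outside the full elements and not capitalised. Map2k1 also has 4 matches to the GC box GGGCGG, against 2 in 1 of the Pdpk1 windows, 1 each in Braf and Map2k2 and 0 in Araf and the other Pdpk1 window. Of all windows, 32.7% hold at least 1 GC box and 16.7% at least 2. The ETS core CCGGAA, found in 12.03% of windows, occurs once in each of Map2k1, Araf and 1 of the 2 Pdpk1 windows. The windows of Map2k2, Araf and Pdpk1 hold no TGACGTCA. Both strands were searched, the motifs were chosen after the sequences were seen, and a match describes the letters and no binding.

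The other genes of the pathway were described by role, each through its brightest probe set, and no gene of these lists passed the adjusted test in limma. For comparison, 3427 of all 7866 genes had a higher and 4439 a lower mean on the arrays labelled Rsk2-KO, with a median log2 difference of −0.04, and the groups did not overlap in 14.2% of genes. Upstream of Raf, 15 Ras and Rap GTPases, exchange factors, GTPase-activating proteins and adaptors were measured, of which 9 lay higher and 6 lower with a median of 0.04. Without WT 1 they were 7 higher and 8 lower (median −0.06), and without WT 2 they were 12 higher and 3 lower (median 0.15). Rasa1, a GTPase-activating protein that switches Ras off, had 297, 310 and 289 on Rsk2-KO 1, 2 and 3 and 233, 177 and 258 on WT 1, 2 and 3. Every array labelled Rsk2-KO was above every WT array, the difference was 0.44 on the log2 scale (SE 0.16, limma adjusted p = 0.661), and its other probe sets differed by 0.38 and 0.81. Between the arrays numbered 3, however, Rasa1 differed by 0.17, against 0.58 within those numbered 1 and 2. The small GTPases Rap1b and Rap1a, which can activate Braf in neurons, differed by 0.32 (SE 0.17) and 0.33 (SE 0.18). Between the arrays numbered 3 these differences were 0.05 and −0.08.

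At the level of the cascade itself, 8 other kinases and scaffolds were measured, of which 1 lay higher and 7 lower, with a median of −0.17. Pea15a, a protein that holds ERK in the cytoplasm, gave 1012, 1034 and 1205 on Rsk2-KO 1, 2 and 3 and 1390, 1293 and 1331 on WT 1, 2 and 3. The groups did not overlap, with a log2 difference of −0.31 (SE 0.13, limma adjusted p = 0.661), beside −0.25 at its other probe set. The scaffold Ksr1 and the Raf inhibitor Pebp1 differed by −0.19 (SE 0.15) and −0.17 (SE 0.14), but Pebp1 by 0.09 between the arrays numbered 3, against −0.30 within those numbered 1 and 2. Without WT 1 the count for this list was 3 higher and 5 lower, with a median of −0.08. Rps6ka1, Rps6ka2 and Rps6ka6, the closest relatives of Rps6ka3, were not analysed here. Of the other S6 kinases only Rps6kb2 was measured, with a log2 difference of −0.22 (SE 0.22). This value came from the arrays numbered 3 (−0.72 between them, 0.03 within the others) and was −0.03 without WT 3. Among 9 other kinases that Pdpk1 activates, 4 lay higher and 5 lower, with a median of −0.03, which was 0.05 with 6 higher and 3 lower without Rsk2-KO 2. Prkcz, an atypical protein kinase C, was lower on every array labelled Rsk2-KO (294 ± 6.60 against 353 ± 24.4, SD, n = 3 each), and Prkci, its close relative, was higher on every one by 0.15 but had another probe set at −0.36. The conventional isoform Prkcb differed by 0.25 (SE 0.16).

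Downstream, the phosphatases and feedback inhibitors of ERK signalling had 2 of 12 genes higher and 10 lower, with a median of −0.06, close to that of all genes. Spry2, an inhibitor of receptor signalling to Ras whose transcription ERK activity raises, was 1 of those higher. Its signals were 221, 200 and 214 on Rsk2-KO 1, 2 and 3 and 136, 151 and 175 on WT 1, 2 and 3, with no overlap. The log2 difference of Spry2 was 0.47 (SE 0.15, adjusted p = 0.661), and it was 0.29 between the arrays numbered 3. Its relative Spry1 differed by −0.29 (SE 0.19), and Dusp1, an inducible phosphatase of MAP kinases, by −0.43 (SE 0.38). For Dusp1 the arrays numbered 3 differed by −1.55 and those numbered 1 and 2 by 0.13. Without WT 2 the list had 4 genes higher and 8 lower.

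Of the ERK-responsive transcripts and the factors that drive them, 1 of 13 had a higher and 12 a lower mean on the arrays labelled Rsk2-KO, with a median of −0.21. This list mixes immediate-early genes such as Arc, Fos and Egr3 with the factors Elk1, Srf and Creb1, and none of its genes passed the test. Elk1, an ETS factor that ERK phosphorylates, gave 75.2, 69.1 and 54.8 on Rsk2-KO 1, 2 and 3 and 95.7, 118 and 75.7 on WT 1, 2 and 3. Its groups did not overlap, by a margin of 75.2 to 75.7 at the nearest arrays, and the log2 difference was −0.53 (SE 0.21, adjusted p = 0.661) with −0.22 at its other probe set. Etv5 and Arc differed by −0.48 (SE 0.25) and −0.57 (SE 0.32), and the 3 values of Arc on the arrays labelled Rsk2-KO (64.8, 164 and 72.4) lay on both sides of the WT values (138, 140.5 and 131). Without Rsk2-KO 3 the count of this list was 5 higher and 8 lower, with a median of −0.18, and without Rsk2-KO 2 it was 0 higher and 13 lower, with a median of −0.39. Between the arrays numbered 3 alone it was 4 higher and 9 lower, with a median of −0.41, against 3 higher and 10 lower with a median of −0.14 within those numbered 1 and 2.

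**Figure D3:**
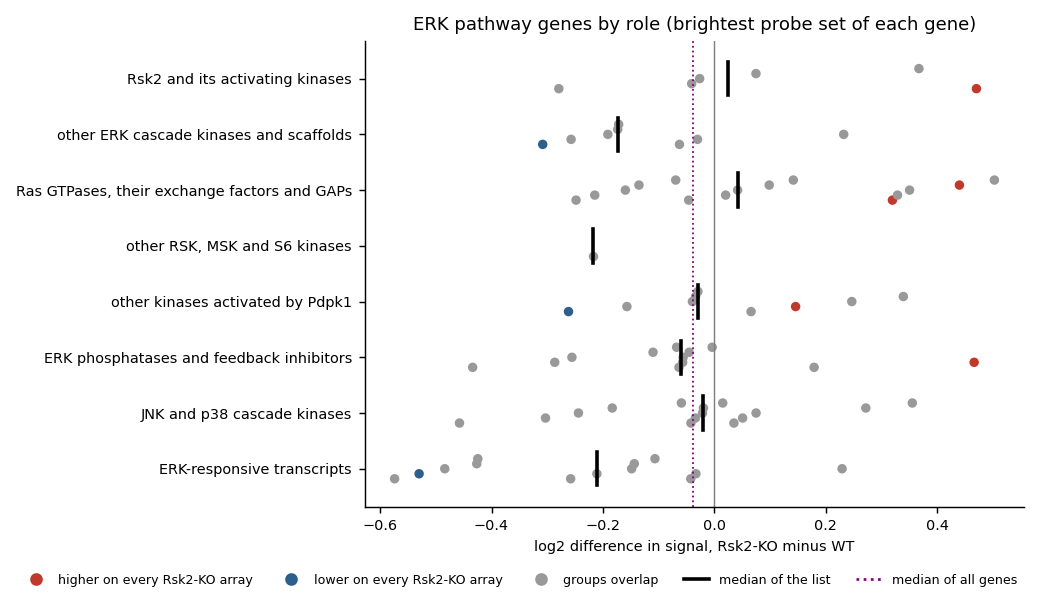
Log2 difference in signal, arrays labelled Rsk2-KO minus WT, for the brightest probe set of each gene, by role in the pathway; red and blue points mark genes whose groups do not overlap, black bars the median of each list and the dotted line the median of all genes (−0.04). The ERK-responsive list has 12 of 13 points below 0, and no gene in any list passed the adjusted test.

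**Figure D4:**
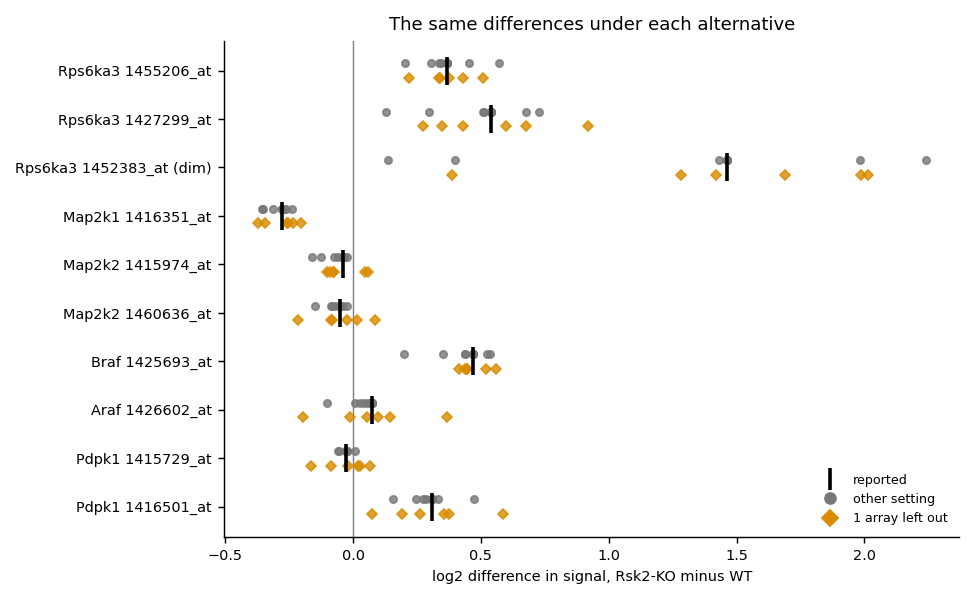
Log2 difference in signal of each probe set as reported (black bar), with other processing settings (grey points) and with 1 array left out (orange diamonds). Braf and the 3 Rps6ka3 probe sets stay above 0 and Map2k1 below 0 under each setting tried, while Map2k2, Araf and Pdpk1 at 1415729_at fall on both sides. The grey points for filters, for the trend and prior options of limma and for blocks equal the reported difference by construction.

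Under the alternatives tried, the direction did not turn for Braf, Map2k1, the 3 probe sets of Rps6ka3 and Pdpk1 at 1416501_at. Changes of filter, of the trend and prior options of limma and of blocks could not turn it, as they leave the log2 difference unchanged. The smallest adjusted p that any member reached under any of them was 0.102 in limma, for Braf with array weights. On simulated arrays with the real means and spreads, 37.8% of probe sets changed 2-fold and 4.27% of those changed 1.5-fold were called. The simulated noise was drawn independently for each probe set and array, so the shared shift of the arrays numbered 3 was not simulated. None of the 9 member probe sets above the signal limit differed by as much as 1.5-fold.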

How the data were processed

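The deposited values are MAS5 signal intensity per probe set on a linear scale, computed by the authors, per the submitters' processing notes; the sources used here give no version, settings or build. MAS5 brings all arrays to one trimmed mean, so a difference in total RNA per cell is lost. Each hybridisation started from 6 micrograms of total RNA, per the labels' protocols. Gene symbols came from the GEO platform annotation, in which 20393 probe sets had 1 symbol, 691 several and 1606 none. By Entrez ID, 20364 were found in the RefSeq table of GRCm38.p6 and took its symbol, whether or not it differed. The 64 control probe sets did not enter the fit.

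The log2 of the deposited signal was fitted with limma 3.58.1 in R 4.3.3 (two-sided; lmFit on group alone, then eBayes with its trend option; Benjamini-Hochberg over 13576 probe sets at or above the 40th percentile of mean log2 signal, 19.2 on the linear scale). The dim Rps6ka3 probe set took its values from the fit without this filter. Genes of the lists were represented by their brightest probe set (7866 genes), and up to 3 per list with the smallest p were named. The members, lists, alternatives and the interaction test were chosen with earlier results of these data known. Motifs were counted in Python 3.11.15. In 20 simulations with 200 of 13576 probe sets changed, 72.9% of 3-fold changes were called, with a mean of 3.5 false calls. The number of arrays limits the precision; the median SE of a log2 difference was 0.20.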

Additional observations from a re-analysis of the deposited data

How the results depend on the processing

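Of 174 recomputed differences of the member probe sets, 11 turned sign, all in probe sets whose reported difference was below 0.1 in size. The 174 include changes of filter, of the trend and prior options of limma and of blocks. These cannot change a log2 difference in this balanced design, so only the other settings could turn a sign. With array weights Araf was −0.10, and without both arrays numbered 3 Pdpk1 at 1415729_at was 0.0076. With 1 array left out the log2 difference ran from −0.10 to 0.058 for Map2k2 at 1415974_at, from −0.22 to 0.087 at 1460636_at, from −0.20 to 0.37 for Araf and from −0.16 to 0.067 for Pdpk1 at 1415729_at. For Rps6ka3 at 1455206_at it ran from 0.22 to 0.51, and it was 0.20 with an offset of 64, which shrinks differences by construction. The cause of the sign changes was not tested.

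No member probe set passed under any alternative. Over all probe sets, 0 passed in either direction, but without both arrays numbered 3 limma called 176 higher and 20 lower, and with the array number as a replicate block it called 0 higher and 1 lower. Under that block Rps6ka3 had an adjusted p of 0.371. The deviations of same-numbered arrays correlated at 0.096, 0.461 and 0.486 for numbers 1, 2 and 3. As 4 of 6 arrays correlated best with their own number, the numbers were not taken to pair the samples. Rsk2-KO 3 and WT 3 each correlated negatively with the other label's arrays numbered 1 and 2 (−0.128 to −0.486). A block for the arrays numbered 3 gave 2079 probe sets at an unadjusted p under 0.05 in limma, against 937 without it. The lowest adjusted p was then 0.201 against 0.661. The fit on group alone leaves this shift in its spread. The settings tried were other scalings (quantile, median), an offset of 16 or 64 before the log, the filter dropped or raised to the 60th percentile, eBayes without trend or with a robust prior, weighted arrays, both blocks, and a threshold of 0.1. Probe sets near the signal limit, as for Araf, Trem2 and 2 of the Rps6ka3 probe sets, limit what can be read from their ratios.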

Other observations

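The kinases of the JNK and p38 cascades, which run beside the ERK cascade and respond to stress, did not shift as a list. Of 15 measured, 6 had a higher and 9 a lower mean on the arrays labelled Rsk2-KO, with a median log2 difference of −0.02, against −0.04 for all genes, and 0 had groups that did not overlap. Map2k6, which activates p38, differed by −0.46 (SE 0.22), with signals of 54.7, 43.2 and 44.0 on Rsk2-KO 1, 2 and 3 and 50.0, 79.4 and 67.7 on WT 1, 2 and 3. The overlap came from WT 1 and Rsk2-KO 1. Map3k12, a kinase of axonal injury signalling, differed by −0.24 (SE 0.14), but its other probe set had the opposite sign, 0.32. Mapkapk2, a kinase that p38 activates, differed by −0.30 (SE 0.25), but by 0.13 between the arrays numbered 3. The JNK kinase Mapk8 had differences of 0.27 (SE 0.25) where it was brightest, and of 0.95 (SE 0.44) and 0.43 (SE 0.26) at the other probe sets; this gene was added after its values were seen. No gene of the list passed the adjusted test in limma at its brightest probe set.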
